A study of Mus musculus with 8 samples.

Results

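The genes described here encode the protein subunits of the mitochondrial ribosome. They are the genes whose platform symbol is Mrpl or Mrps followed by a number, on a probe set with no second symbol, and where a gene had several such probe sets the brightest on average across the 8 arrays was used. This gave 71 of the 22180 genes with a value, 43 of the large subunit (Mrpl) and 28 of the small subunit (Mrps). All 71 passed the filter on dim genes, which asks for at least 4 of 8 arrays above a limit of 3.46 to 3.50 on the log2 scale. In all 8 arrays 69 lay above it, while Mrpl27 and Mrps36 did so in 5. A further 7 genes of the family (Mrpl30, Mrpl33, Mrpl41, Mrpl43, Mrpl44, Mrpl53 and Mrps6) are only on probe sets that also carry another gene's symbol, so they have no value of their own here.

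The samples were livers of male C57BL/6J mice, 4 wild type and 4 with a knock-in of the Tm6sf2 E167K allele, with total RNA measured on Affymetrix whole-transcript arrays. Wild type mice were littermates of knock-in mice, the labels give no age, and the strain label is the same for both groups. How far the genetic background of the groups matches is not settled by the labels, and Nnt, a gene that varies between C57BL/6 substrains, differed between them (values at the end), so background and the E167K allele cannot be told apart in any difference given here. The labels give 2 diets for these animals, a high-fat diet over 20 weeks in the text on the series and, in the treatment note, either chow or a fat-free diet high in sucrose over 14 weeks, so the diet of each array is not settled. Nothing in the labels says that each array is a separate animal, so the p-values here rest on the spread among samples, which may in part be technical.

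Mitochondria keep their own ribosome, which makes the few hydrophobic respiratory chain subunits that mitochondrial DNA encodes. Its ribosomal RNAs come from mitochondrial DNA, but every one of its proteins comes from a nuclear gene, is made in the cytosol and is imported. The large subunit holds the centre that forms peptide bonds and the tunnel through which the new chain leaves, and the small subunit binds the mRNA and reads its codons. Some of these proteins descend from bacterial ribosomal proteins, and others were added in the mitochondrial lineage. Hepatocytes are rich in mitochondria and oxidise fatty acids in them.

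Promoters of nuclear genes for mitochondrial proteins are known for sites of NRF1, of the ETS factor GABPA and of YY1, so the windows around the start of each gene were searched for them. RefSeq windows on GRCm38.p6, from 250 bases before a start to 50 after it, matched 62 of the 71 genes. The windows of 4 genes are shown, those of the small subunit genes Mrps24 and Mrps26 and the large subunit gene Mrpl39, which had 3 of the 4 smallest p-values, and that of Mrps11, which starts beside another gene of the family and had the smallest change. Capitals mark a match to NRF1 (CGCATGCG), ETS (CCGGAAG) or YY1 (AAGATGGC) in either orientation, and each window is written 5′ to 3′ along its gene.
Mrpl39, chr16:84735195-84735494, minus strand: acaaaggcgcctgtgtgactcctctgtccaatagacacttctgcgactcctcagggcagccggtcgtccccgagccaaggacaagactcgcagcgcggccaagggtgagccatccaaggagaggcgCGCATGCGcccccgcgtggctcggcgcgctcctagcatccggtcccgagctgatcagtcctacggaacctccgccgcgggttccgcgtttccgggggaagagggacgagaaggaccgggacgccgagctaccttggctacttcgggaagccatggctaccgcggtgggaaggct
Mrps24, chr11:5707652-5707951, minus strand: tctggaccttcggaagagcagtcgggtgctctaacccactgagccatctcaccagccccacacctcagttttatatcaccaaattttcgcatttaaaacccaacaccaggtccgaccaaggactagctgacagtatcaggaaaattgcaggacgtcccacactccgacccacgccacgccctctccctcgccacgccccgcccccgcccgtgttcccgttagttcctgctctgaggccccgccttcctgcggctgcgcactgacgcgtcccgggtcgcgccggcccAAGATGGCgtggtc
Mrps26, chr2:130563507-130563806, plus strand: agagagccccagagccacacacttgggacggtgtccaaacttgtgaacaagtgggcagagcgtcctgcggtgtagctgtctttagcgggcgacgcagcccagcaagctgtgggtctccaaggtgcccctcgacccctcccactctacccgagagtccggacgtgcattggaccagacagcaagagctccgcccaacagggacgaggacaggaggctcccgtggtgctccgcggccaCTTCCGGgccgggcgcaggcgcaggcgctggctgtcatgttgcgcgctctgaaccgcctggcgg
Mrps11, chr7:78782881-78783180, plus strand: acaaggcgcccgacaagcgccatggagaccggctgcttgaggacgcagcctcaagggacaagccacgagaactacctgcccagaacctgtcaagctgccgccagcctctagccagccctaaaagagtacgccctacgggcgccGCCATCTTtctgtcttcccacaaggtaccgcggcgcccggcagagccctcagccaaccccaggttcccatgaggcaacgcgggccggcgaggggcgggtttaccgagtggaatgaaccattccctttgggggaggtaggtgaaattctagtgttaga
The NRF1 match of Mrpl39 begins at base -124 from the start. The YY1 match of Mrps24 lies after the start, at base 37, and that of Mrps11 before it, at base -107, as the reverse complement. Mrps26 has an ETS match as the reverse complement at base -14.

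Over the family, 35 of 68 windows (51.47%) held at least 1 of these 3 motifs, against 21.36% of the 13355 windows of tested genes and 12.64% of all 32851 windows. The ETS letters were in 33.82% of the family's windows and 15.66% of those of tested genes, the YY1 letters in 17.65% and 4.00%, and the NRF1 letters in 10.29% and 3.47%. ETS and YY1 matches, which can share the letters AAG, overlapped in 0 of the 68 windows. The SP1 box (GGGCGG) was in 54.41% of the family's windows and 58.52% of those of tested genes, and the E-box (CACGTG) in 10.29% and 9.55%. The median GC content was 58.5% in the family's windows and 60% in those of tested genes. By subunit, NRF1 letters were in 6 of 42 large subunit windows and 1 of 26 small subunit windows, and ETS letters in 12 of 42 and 11 of 26. These matches are a description of letters, not of bound sites. The 35 genes with 1 of the 3 motifs had a median change between genotypes of 0.058 on the log2 scale, and the 27 without had 0.069.

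**Figure D1:**
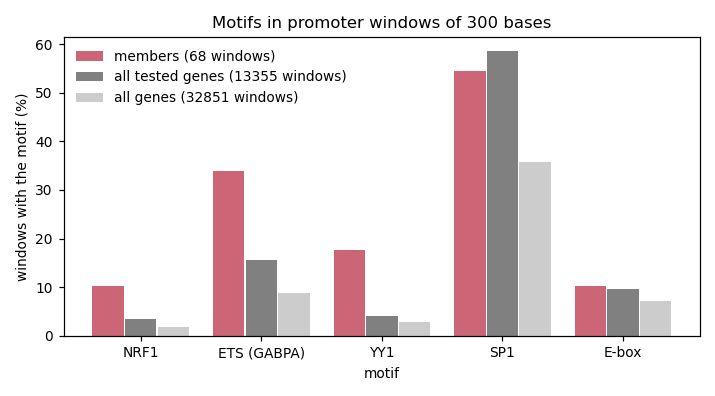
Share of promoter windows (percent, y axis) that hold each of 5 motifs (x axis), for the 68 windows of mitochondrial ribosomal protein genes, the 13355 windows of tested genes and all 32851 windows. The ETS, YY1 and NRF1 bars of the family stand above both others, at 33.82%, 17.65% and 10.29%, while the SP1 bar, at 54.41%, stands below that of tested genes.

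In the knock-in livers no mitochondrial ribosomal protein gene changed past the threshold. Most had a slightly higher mean in knock-in than in wild type, 53 of 71 (74.6%, against 51.1% of all 13449 tested genes), and the median change was 0.06 (knock-in minus wild type, log2), against 0.005 over all tested genes. Changes ran from -0.49 for Mrps14 to 0.28 for Mrps24, and 39 of 71 were smaller than 0.1 in either direction. At an adjusted p under 0.05 (limma with Benjamini-Hochberg adjustment over all tested genes), 0 of 71 passed, where 0.0669% of tested genes did, and the lowest adjusted p in the family was 0.251. At an unadjusted p under 0.05, 2 genes were higher in knock-in (6.01% of tested genes were) and 1 was lower (5.29%). The 4 knock-in arrays lay wholly above the 4 wild type arrays for 1 gene (3.96% of tested genes) and wholly below for 1 (3.2%). Counts of 1 or 2 genes are too few to set these shares apart from those of genes at large.

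The intervals show how large a change the arrays could have missed. For 66 of 71 genes (93.0%, against 73.8% of tested genes) the 95% interval of the change lay within 1.5-fold in both directions. The 5 whose interval reached past 1.5-fold were Mrpl27, Mrpl28, Mrps14, Mrps16 and Mrps18a. Standard errors (SE) were 0.080 to 0.274 with a median of 0.104, and the median residual SD was 0.13, against 0.19 over all tested genes. Wild type means ran from 3.50 to 9.45, with 46 of 71 above 7. These adjusted p-values and intervals are those of limma with 4 arrays a group, and in whole liver a lower share of a cell type and less RNA per cell cannot be told apart.

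**Figure D2:**
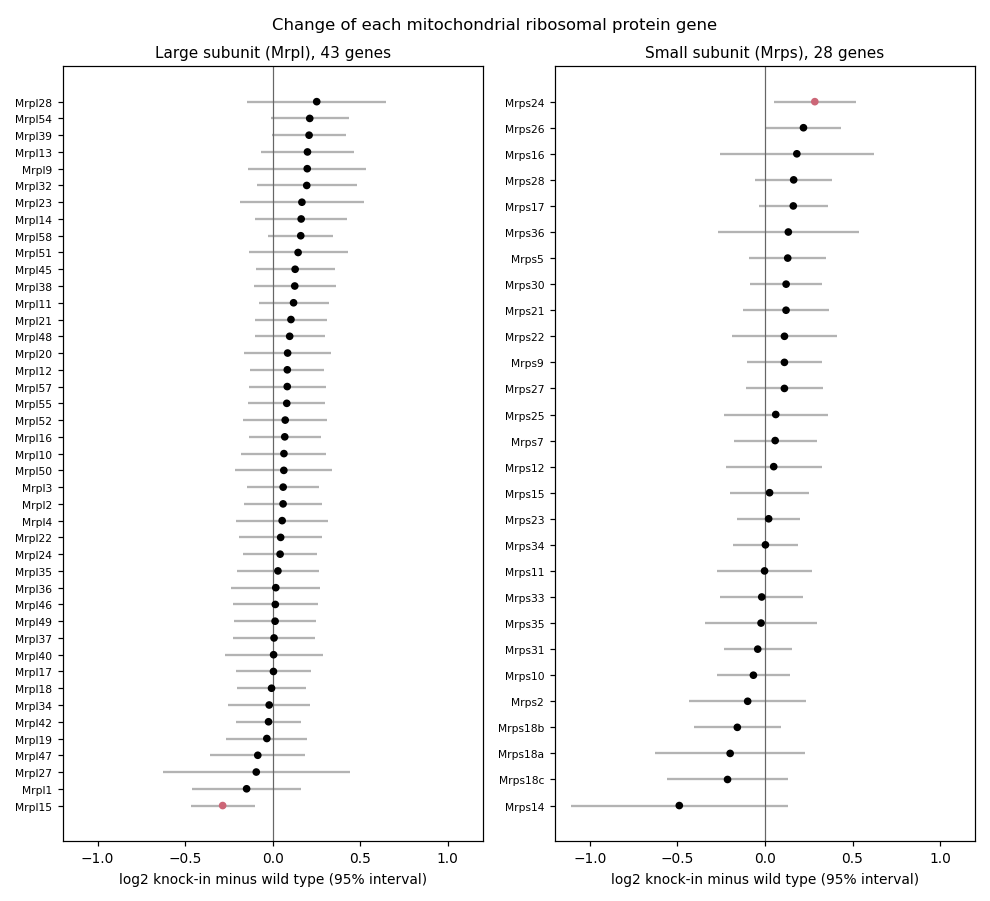
Change of each of the 43 large and 28 small subunit genes (x axis, log2 knock-in minus wild type; points, with lines for the 95% interval), sorted within each subunit. The red points are Mrpl15 and Mrps24, whose groups do not overlap; most points lie just right of 0 and 66 intervals lie within 1.5-fold.

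Among large subunit genes, Mrpl15 had the lowest p-value of the family. It encodes the relative of bacterial L15. The wild type arrays read 8.515, 8.511, 8.543 and 8.449, and the knock-in arrays 8.199, 8.345, 8.211 and 8.119. All 4 knock-in values lay below all 4 wild type values. The change was -0.29 (SE 0.08, 0.820 times the wild type level, limma adjusted p = 0.251), with adjusted p from 0.131 to 0.438 over the alternative settings.

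Mrpl39 encodes a subunit added in the mitochondrial lineage. Its wild type arrays read 9.207, 9.257, 9.078 and 9.181, and its knock-in arrays 9.213, 9.485, 9.364 and 9.493. The lowest knock-in array lay inside the wild type range, and the other knock-in arrays lay above it. The change was 0.21 (SE 0.09, limma adjusted p = 0.443).

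Mrpl54 encodes a further mitochondria-specific subunit. It read 7.931, 7.769, 7.733 and 8.031 in wild type and 8.093, 8.181, 8.102 and 7.933 in knock-in. Here 1 knock-in array fell within the wild type range, and the change was 0.21 (SE 0.10, limma adjusted p = 0.461). Mrpl58, a peptidyl-tRNA hydrolase built into the large subunit that helps free stalled ribosomes, read 8.375, 8.210, 8.280 and 8.357 in wild type and 8.487, 8.475, 8.356 and 8.545 in knock-in. Again the groups met in 1 knock-in array, and the change was 0.16 (limma adjusted p = 0.507). Mrpl13, the relative of bacterial L13, differed by 0.20 (7.80 ± 0.21 in wild type and 8.0 ± 0.11 in knock-in, SD, n = 4 each), Mrpl32, which the mitochondrial m-AAA protease trims, by 0.19 (7.92 ± 0.18 and 8.11 ± 0.19), and Mrpl28 by 0.25 (5.19 ± 0.11 and 5.44 ± 0.38). Their limma adjusted p-values were 0.574 to 0.643, and the groups overlapped in each.

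By place in the large subunit, 3 of 3 proteins of the stalk that recruits translation factors (Mrpl10, Mrpl11 and Mrpl12) had a higher mean in knock-in, with a median change of 0.08. Mrpl12, which has also been reported to bind the mitochondrial RNA polymerase, was 8.76 ± 0.12 in wild type and 8.85 ± 0.10 in knock-in, a change of 0.08 (limma adjusted p = 0.795). Around the tunnel exit (Mrpl17, Mrpl22, Mrpl23, Mrpl24, Mrpl45 and Mrpl47), 5 of 6 were higher with a median of 0.04, and Mrpl17 was level at 8.95 ± 0.14 and 8.95 ± 0.08. Of the proteins near the catalytic centre (Mrpl2, Mrpl3, Mrpl4, Mrpl16 and Mrpl27), 4 of 5 were higher with a median of 0.06, and of those of the central protuberance (Mrpl18, Mrpl38, Mrpl40, Mrpl46, Mrpl48 and Mrpl55), 5 of 6 with a median of 0.05. None of these 20 genes had an unadjusted p under 0.05, where 6.01% of tested genes were higher and 5.29% lower. The places were assigned after the values were known and are a description.

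Among small subunit genes, Mrps24 had the highest change of the family. It encodes the relative of bacterial S3, on the head of the subunit near the mRNA entry. Its wild type arrays read 8.256, 7.961, 7.864 and 8.079, and its knock-in arrays 8.263, 8.444, 8.287 and 8.305. The knock-in arrays all lay above the wild type arrays, though the highest wild type array came within 0.01 of the lowest knock-in array. The change was 0.28 (SE 0.10, 1.22 times the wild type level, limma adjusted p = 0.340).

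Mrps26, a mitochondria-specific subunit, read 7.042, 6.973, 7.116 and 7.056 in wild type and 7.314, 7.402, 7.296 and 7.052 in knock-in. The last knock-in array lay within the wild type range and the other 3 above it. The change was 0.22 (SE 0.10, limma adjusted p = 0.429).

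Mrps14, the relative of bacterial S14, had the most negative change of the family and the widest spread. Its wild type arrays read 4.715, 3.774, 5.136 and 4.936, and its knock-in arrays 4.240, 4.429, 3.866 and 4.069. Wild type array 2 was the lowest of the 8, below every knock-in array, and the other 3 wild type arrays were above every knock-in array. The change was -0.49 (SE 0.27, limma adjusted p = 0.543), near the dim end of the scale.

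Mrps17, the relative of bacterial S17, read 7.85 ± 0.11 in wild type and 8.01 ± 0.07 in knock-in (SD, n = 4 each), a change of 0.16. Mrps28 read 6.53 ± 0.14 and 6.70 ± 0.09, also a change of 0.16. Their limma adjusted p-values were 0.530 and 0.574. Mrps12, the relative of the bacterial decoding-centre protein S12, read 6.19 ± 0.09 and 6.24 ± 0.23 (limma adjusted p = 0.925). Mrps34 read 7.31 ± 0.07 and 7.31 ± 0.09 and Mrps11 6.76 ± 0.09 and 6.75 ± 0.22, which were with Mrpl17 the smallest changes of the family.

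**Figure D3:**
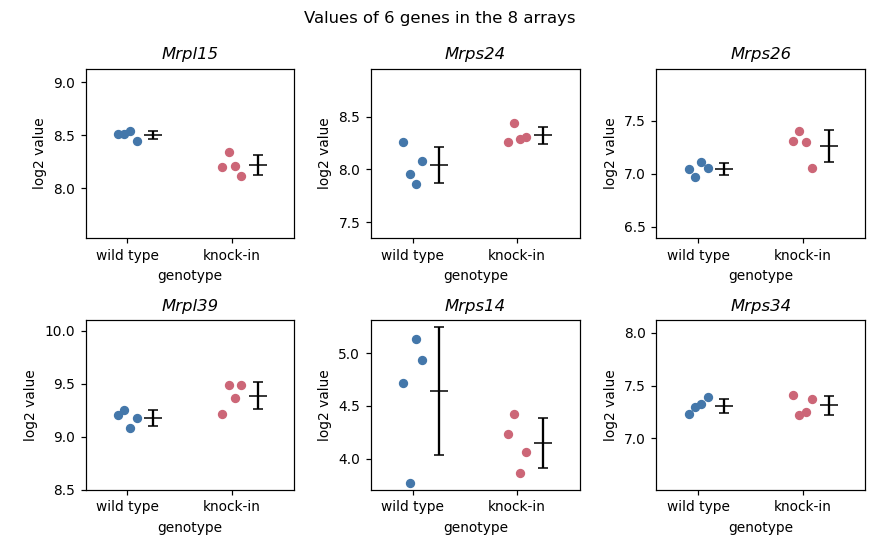
Values (log2, y axis) of 6 mitochondrial ribosomal protein genes in the 4 wild type and 4 knock-in arrays, as points with the group mean and SD beside them; each panel spans the same height on the log2 scale. The groups are apart for Mrpl15 (8.50 against 8.22) and Mrps24 (8.04 against 8.32), overlap in 1 knock-in array for Mrps26 and Mrpl39, and are level for Mrps34, while wild type values of Mrps14 run from 3.774 to 5.136.

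The 3 mammalian relatives of bacterial S18 occupy different ribosome positions, Mrps18c the one of the small subunit platform that S18 holds in bacteria, Mrps18b another site of the small subunit, and Mrps18a the large subunit. All 3 had a lower mean in knock-in, by 0.21 (SE 0.15), 0.16 (SE 0.11) and 0.20 (SE 0.19) on the log2 scale, and their limma adjusted p-values were 0.639 to 0.752. The second probe set of Mrps18b gave 0.03, of the opposite sign. That of Mrps18c gave -0.01, with a mean of 3.419 that lies below the dim limit. Mrps30, which structures place in the large subunit in spite of its symbol, read 7.80 ± 0.10 and 7.92 ± 0.10. Mrps36, since assigned to the oxoglutarate dehydrogenase complex and not to the ribosome, read 3.50 ± 0.26 and 3.63 ± 0.30, at the dim limit.

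By place in the small subunit, 3 of 5 head proteins (Mrps7, Mrps9, Mrps10, Mrps14 and Mrps24) were higher in knock-in with a median of 0.06. So were 4 of 4 body proteins (Mrps5, Mrps12, Mrps16 and Mrps17) with a median of 0.15, and 1 of 3 platform proteins (Mrps11, Mrps18c and Mrps21) with a median of -0.002. Of all tested genes 51.1% were higher. These places too were assigned after the values were known, and not every small subunit gene was placed. Mrps15, a bacterial homologue with a change of 0.03, is in none of them. Groups this small do not set the places apart. Of 11 genes picked because their human counterparts are mutated in mitochondrial disease, 9 were higher, with a median of 0.06 and a mean of 0.01. Their changes ran from -0.49 to 0.18, and the list need not be complete.

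The large subunit genes were higher in 35 of 43 (81.4%) and the small subunit genes in 18 of 28 (64.3%). Their median changes were 0.06 and 0.05, a difference of 0.01 on the log2 scale. When Mrps30 and Mrps18a were counted with the large subunit and Mrps36 was left out, 36 of 45 and 16 of 25 were higher, with medians of 0.06 and 0.05. Within single arrays the mean centred value of large minus small subunit genes was -0.01, 0.01, -0.06 and -0.01 in wild type arrays 1 to 4 and 0.02, -0.003, 0.04 and 0.02 in knock-in arrays 1 to 4. The ranges overlapped, since wild type array 2 lay above knock-in array 2.

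By descent, the 43 genes named after a bacterial protein in the unified nomenclature had a median change of 0.06 with 31 higher, and the 28 other genes 0.07 with 22 higher. Those 28 include Mrps18a and Mrps18b, which are relatives of S18 at other positions. With both counted as bacterial relatives, a choice made after seeing the values, the medians were 0.06 with 31 of 45 higher and 0.08 with 22 of 26 higher. Of the 15 mitochondria-specific large subunit genes 14 had a higher mean, with a median of 0.08. Of the 28 large subunit genes named after a bacterial protein 21 did, with a median of 0.06. Among mitochondria-specific small subunit genes by symbol, 8 of 11 did without Mrps18a and Mrps18b, with a median of 0.06, and 8 of 13 with them, with a median of 0.02. Of the 15 small subunit genes named after a bacterial protein 10 did, with a median of 0.06.

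The small upward shift of the family stood mainly in 2 arrays. The mean centred value over all 71 genes was 0.03, -0.10, -0.03 and 0.01 in wild type arrays 1 to 4, and -0.002, 0.12, -0.03 and 0.01 in knock-in arrays 1 to 4. Wild type array 2 was the lowest array for 23 of 71 genes and knock-in array 2 the highest for 25. The other 3 knock-in arrays lay within the range of the other 3 wild type arrays. The difference of the group means was 0.05 with a pooled SD of 0.06. With 1 array left out, 42 of 71 genes were higher without wild type array 2 and 45 without knock-in array 2. Leaving out any other array gave 50 to 55. Leaving out both arrays numbered 2 had to shrink the shift, since they are the family's lowest and highest. Without both, a choice made after seeing the values, 37 of 71 genes had a higher mean in knock-in. The medians were then 0.01 for large and 0.003 for small subunit genes. At an unadjusted p under 0.05, 0 genes were higher and 3 lower.

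These 2 arrays also have the highest and the lowest median over all probe sets, 3.802 for wild type array 2 and 3.725 for knock-in array 2. After a further quantile normalization they remained the ends of the family's range, at -0.09 and 0.11, with 50 of 71 genes higher. The hepatocyte markers did not follow them, at 0.01 in wild type array 2 and -0.04 in knock-in array 2. Genes of cytosolic ribosomal proteins were at -0.02 and 0.16, and nuclear respiratory chain genes at -0.12 and 0.13. The part of array quality in the shift was not tested.

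**Figure D4:**
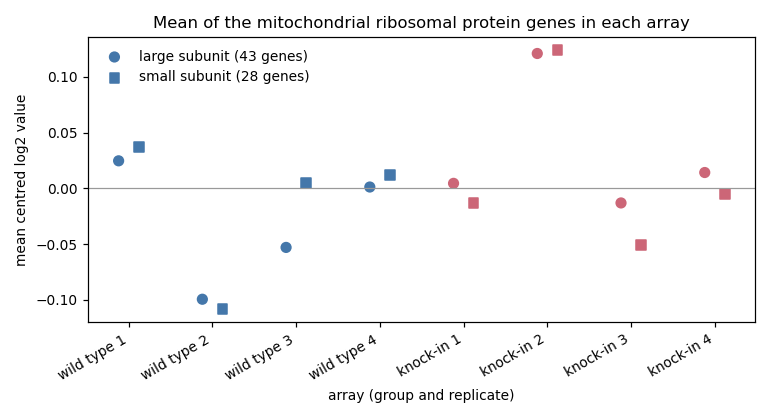
Mean centred log2 value (y axis) of the 43 large subunit genes (circles) and 28 small subunit genes (squares) in each of the 8 arrays (x axis), wild type in blue and knock-in in red. Wild type array 2 lies lowest, near -0.10, and knock-in array 2 highest, at 0.12, for both subunits, while the other 6 arrays lie between -0.06 and 0.04.

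Probe choice mattered for a few genes. Of the 9 genes with more than 1 probe set, Mrpl36, Mrpl47 and Mrps18b had changes of opposite sign on their probe sets, 0.02 and -0.27, -0.09 and 0.10, and -0.16 and 0.03, the brighter probe set first. The dimmer probe sets of Mrps17, Mrps5, Mrpl12 and Mrps16 gave larger changes of the same sign than the ones used, 0.63 against 0.16, 0.38 against 0.13, 0.19 against 0.08 and 0.24 against 0.18. Those of Mrpl10 and Mrps18c gave smaller ones, 0.03 against 0.06 and -0.01 against -0.21. Several dimmer probe sets lay near the dim limit, where changes are unsure. Their means over the 8 arrays were 3.608 for Mrpl36, 3.636 for Mrps5, 3.974 for Mrpl10 and 3.419 for Mrps18c. Those of Mrps18b and Mrps16 were nearly as bright as the ones used, at 8.188 against 8.360 and 6.364 against 6.605. Over the probe sets that the 7 unmeasured genes share with another gene, changes ran from -0.24 (Mrps6 with Slc5a3) to 0.31 (Mrpl33 with Gm38424). The one that Mrpl44 shares with Wdfy1 read 6.43 ± 0.21 in wild type and 6.42 ± 0.04 in knock-in. Some measured genes are also on shared probe sets, which cannot be assigned to 1 gene. That of Mrps34 with Nme3 read 7.36 ± 0.14 and 7.63 ± 0.12, a change of 0.27. Those of Mrpl47 with Actl6a, Mrps27 with 6430562O15Rik and Mrpl19 with Gcfc2 changed by 0.18, 0.09 and -0.04.

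Among other proteins of mitochondrial translation no gene passed adjusted p 0.05 either. The 3 ribosomal proteins with other symbols were Dap3, at the head of the small subunit, with a change of 0.18 (SE 0.10, limma adjusted p = 0.528), Gadd45gip1, of the large subunit, with 0.12, and Ptcd3, of the small subunit, with -0.04. Of 25 genes for ribosome assembly 13 were higher (52.0%, against 51.1% of all tested genes), with a median of 0.01. At an unadjusted p under 0.05 there were 0, where 6.01% of tested genes were higher and 5.29% lower. Of 13 translation factors 9 were higher, with a median of 0.06 and again 0 at that p, which says little in so short a list. Tufm, the elongation factor that brings aminoacyl-tRNA, was at 0.11, and Gfm1, the elongation factor of translocation, at -0.05.

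Mitochondrial aminoacyl-tRNA synthetases and related genes were higher in 11 of 19, with a median of 0.03, and 3 of 19 were higher at an unadjusted p under 0.05 (6.01% of tested genes were) and 2 of 19 had knock-in arrays wholly above wild type (3.96% of tested genes). Aars2, the alanyl-tRNA synthetase, read 6.113, 5.971, 6.128 and 5.980 in wild type and 6.243, 6.431, 6.199 and 6.268 in knock-in. Its groups did not overlap, and the change was 0.24 (SE 0.09, limma adjusted p = 0.348). Fars2, the phenylalanyl-tRNA synthetase, was also apart, at 7.92 ± 0.07 and 8.26 ± 0.30, a change of 0.35 (limma adjusted p = 0.394). Rars2, the arginyl-tRNA synthetase, was at 7.11 ± 0.14 and 7.36 ± 0.06, a change of 0.24 with groups that overlapped (limma adjusted p = 0.363).

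Of 22 tested genes for the upkeep, transcription and RNA processing of mitochondrial DNA, 17 were higher, with a median of 0.06. Fastkd3, an RNA-binding protein of mitochondria, read 5.727, 5.420, 5.810 and 5.550 in wild type and 6.175, 6.143, 6.182 and 6.014 in knock-in. Every knock-in array lay above every wild type array, and the change was 0.50 (SE 0.10, limma adjusted p = 0.138, and 0.108 to 0.392 over the alternative settings). Tfam, which packs mitochondrial DNA and starts its transcription, was at -0.01, the mitochondrial RNA polymerase Polrmt at -0.08, and Lrpprc, which stabilises mitochondrial mRNAs, at 0.11.

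Of 10 regulators of mitochondrial genes 5 were higher, with a median of 0.02. Ppargc1a, a coactivator that drives mitochondrial biogenesis, read 8.958, 9.258, 9.044 and 8.863 in wild type and 9.193, 9.479, 9.357 and 9.431 in knock-in. The groups overlapped through wild type array 2, and the change was 0.33 (SE 0.11, limma adjusted p = 0.314). The factors whose motifs were searched in the windows were at -0.14 for Nrf1, -0.01 for Gabpa and 0.04 for Yy1, with no unadjusted p under 0.05.

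The products of the mitochondrial ribosome start as mRNAs of mitochondrial DNA. Of 10 such mRNAs with a probe set 9 had a lower mean in knock-in, with a median change of -0.04 and a range of -0.06 to 0.12. An unadjusted p under 0.05 was found for 0 of them (6.01% of tested genes were higher and 5.29% lower at it). In wild type, 9 of them lay between 12.62 and 13.61 and ND6 at 9.90. The array compresses differences near the top of its scale. The knock-in arrays lay wholly below wild type for 2 of the 10 (3.2% of tested genes), chosen here after their values were seen, ND4L (13.04 ± 0.03 and 12.98 ± 0.01) and CYTB (13.12 ± 0.03 and 13.07 ± 0.01), both lower in knock-in by less than 0.07 on the log2 scale.

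Set against 2 other families, the mitochondrial ribosomal proteins had the smallest median. Cytosolic ribosomal protein genes were higher in 42 of 54, with a median of 0.09, and 5 were higher and 0 lower at an unadjusted p under 0.05 in limma. Nuclear genes of respiratory chain subunits, the partners of what mitochondrial ribosomes make, were higher in 64 of 73, with a median of 0.12, and 11 were higher and 1 lower at that p. Over all tested genes 6.01% were higher and 5.29% lower at it. The respiratory chain genes' mean centred values ran from -0.12 to -0.01 in wild type and from 0.01 to 0.13 in knock-in, so the groups did not overlap, whereas those of the mitochondrial ribosomal proteins did. None of the 3 families had a gene past adjusted p 0.05, and the difference between families was not tested.

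Many of these genes share a promoter region with a neighbour. Of the 62 genes with a window, 23 (37.1%) start within 1000 bases of a gene on the other strand that runs away from them, against 18.24% of tested genes and 12.22% of all genes. Mrpl46 and Mrps11, of the large and the small subunit, start 42 bases apart, and had changes of 0.01 and -0.002. Mrps12 starts 147 bases from Sars2, the mitochondrial seryl-tRNA synthetase, with changes of 0.05 and 0.13. Mrpl47 starts 308 bases from Ndufb5, a complex I subunit, with changes of -0.09 and 0.13. Mrps27 starts 108 bases from Ptcd2, of the mitochondrial RNA processing list, with changes of 0.11 and 0.08. These are the pairs in which both genes were counted, by symbol, in a family or list described here. The pairs were picked after their values were seen.

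As for the samples, the arrays correlated at 0.973 to 0.980 with each other. Some hepatocyte markers were bright, with Alb at 13.60 and 13.63, Ttr at 13.29 and 13.30 and Apoa1 at 12.17 and 12.19 in wild type and knock-in. Others were dimmer. Ass1, the dimmest listed, had group means of 7.06 ± 0.51 and 7.27 ± 0.31 (same order), and Apoc3 had 9.14 and 9.17. Of 10 hepatocyte markers 7 were higher, with a median of 0.02; Serpina1a was at -0.35 (limma adjusted p = 0.340). Of the other marker lists, 3 of 6 Kupffer cell, 3 of 6 endothelial, 3 of 6 stellate, 2 of 4 cholangiocyte, 2 of 5 lymphocyte, 1 of 1 neutrophil and 2 of 3 brown fat and muscle genes tested were higher. The mean centred values of each list overlapped between groups, and Lyve1, an endothelial gene, was the only one of them with an unadjusted p under 0.05 (0.73, limma adjusted p = 0.295). Tm6sf2 mRNA did not differ detectably (9.72 ± 0.22 and 9.66 ± 0.27, change -0.06, SE 0.16), which does not check a coding variant. Nnt, the mitochondrial transhydrogenase gene that varies between C57BL/6 substrains, was higher in every knock-in array, at 8.29 ± 0.07 and 9.34 ± 0.14, by 1.05 (SE 0.09, limma adjusted p = 0.00951). Its adjusted p was above 0.05 without wild type array 2 (0.0651), knock-in array 1 (0.0549), knock-in array 3 (0.0734) or both arrays numbered 2 (0.12), with changes of 1.02 to 1.12 over the alternative settings.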

How the data were processed

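Liver RNA was measured on 8 arrays, and the authors deposited 1 log2 value for each probe set in each array. The submitters' processing notes name RMA and limma without versions. RMA equalises the distributions of arrays, so a shift shared by most genes would not be seen, and it compresses changes of dim and of very bright probe sets. The values lie between 0.323 and 13.657, and the array medians between 3.725 and 3.802. For the array, build and annotation were not given in the sources used.

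Of 41345 probe sets, 23521 have 1 symbol, 1814 have several and were used only where stated, and 16010 are not listed with a gene. Entrez identifiers matched RefSeq (GRCm38.p6) for 23328 and not for 193, with 0 symbols changed. Per gene the brightest probe set on average was kept (1082 of 22180 genes had more than 1). Genes above the 40th percentile of an array in at least 4 of 8 arrays were tested, which kept 13449 and left out 8731.

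Knock-in was compared with wild type in limma 3.58.1 (R 4.3.3, lmFit and eBayes with genotype alone in the model, two-sided). The p-values were adjusted by Benjamini-Hochberg across every tested gene with a threshold of 0.05. Before that, the procedure was checked on simulated data. The changes planted there were far larger than any of this family, so the check does not cover changes of this size. Group values are means ± SD of 4 arrays; the number of arrays limits the precision. A positive change is a higher mean in knock-in. Array means of a family are means of each gene's value minus its mean over the 8 arrays. Families are described by counts and medians, with no test over a family. Alternatives were other filters, normalization, variance prior, array weights, the mean of probe sets, a replicate block, arrays left out, subunits by structure, and means for medians.

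The genes, lists and rules were chosen with earlier results of these data known. Named genes of the family are the 12 smallest p-values, the 3 highest and 3 lowest changes, those with groups apart, the 3 smallest changes, and Mrpl12, Mrps12, Mrpl44, Mrps18a, Mrps18b, Mrps18c, Mrps30 and Mrps36. From other lists, genes at an unadjusted p under 0.05 (at most 5 a list) and Tfam, Polrmt, Tufm, Gfm1, Lrpprc, Dap3, Gadd45gip1, Ppargc1a, Nrf1, Gabpa, Tm6sf2 and Nnt are named. Other names were added after values were seen.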

Additional observations from a re-analysis of the deposited data

Results flagged for a closer look

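Of 86 groups of 4 arrays examined for a single array far from the other 3 by Dixon's rule, 0 held one.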

How the results depend on the processing

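In all 16 alternative settings 0 of the family's genes passed adjusted p 0.05. Among all tested genes 9 passed, against 25 with array weights, 24 with the mean of probe sets, 2 with no filter, 35 with a stricter filter, 73 with a trended and robust prior, 1 without both arrays numbered 2, and 1 to 12 when 1 array was left out (1 without wild type array 2, knock-in array 1 or knock-in array 3). Same-numbered arrays of the 2 groups correlated at 0.101, -0.105, -0.034 and -0.039, and differently numbered ones at -0.094 to 0.107. No pairing by replicate number is seen in these values, though they cannot settle whether samples were paired. With the replicate block 2 tested genes passed.

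The family's genes higher at an unadjusted p under 0.05, 2 in the report, were 1 after further quantile normalization, with no filter and with the replicate block, 4 with the stricter filter (64 genes) and with the trended and robust prior, 0 without both arrays numbered 2 and 0 to 4 with 1 array left out (0 without wild type array 2 or knock-in array 2). Those lower, 1 in the report, were 3 without both and 1 to 2 with 1 array left out. The difference of subunit medians, 0.009964, was 0.03613 with means and 0.002366 to 0.04182 with 1 array left out (0.03415 without knock-in array 4, 0.04182 without wild type array 4); the cause was not tested.

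Of 634 changes of 40 named genes under the alternatives 608 kept their sign, and 32 genes kept it in all of them. Signs turned for Mrpl17 (-0.005616 with quantile normalization, -0.0959 without both arrays numbered 2), Mrps11 (0.01667 with array weights, though -0.09656 without both), Mrps34 (-0.007976 with array weights), Mrps36 (-0.05178 without both) and Gabpa (0.02762 without both). With 1 array left out the changes ran from -0.05818 to 0.04742 for Mrpl17, -0.07482 to 0.09752 for Mrps11, -0.01974 to 0.1526 for Mrps12, -0.02988 to 0.0335 for Mrps34, -0.001587 to 0.2308 for Mrps36, -0.06211 to 0.02481 for Gabpa, -0.08502 to 0.02825 for Tfam and -0.1593 to 0.06442 for Tm6sf2, which was at -0.1697 without both. Nnt alone of the 40 passed adjusted p 0.05 in any alternative, and lost it in 5, the replicate block (adjusted p 0.13) and the 4 settings with arrays left out that the report gives. Dim genes such as Mrps14 and Mrpl27 have the widest intervals.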
